A study of Mus musculus with 10 samples.

Results

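The 39 genes described here make, recycle or use glutathione and thioredoxin, supply the NADPH that both systems run on, or regulate them through the transcription factor NRF2. They were chosen by gene symbol for their roles, by a rule that uses no measured value, but with earlier results of these data known. They are 39 of the 52324 gene symbols in the deposited expression table. All 39 passed the filter on low values. Expression was measured by RNA sequencing of 10 libraries from subcutaneous tumours of the mouse mammary carcinoma line 4T1, taken on day 14. The groups had 2 libraries each. They were the Lipo form of MK1775 alone (Lipo-MK1775) or with a second agent (Lipo-MK1775+NLG), the free form alone (Free-MK1775) or with that agent (Free-MK1775+NLG919), and the negative control, which the series' design text calls PBS. MK1775 inhibits the cell cycle kinase WEE1, and NLG919 acts on the tryptophan-degrading IDO1 pathway. The design text writes the Lipo combination with NLG919 where the sample labels write NLG. Every group carries the same single tumour line, and the labels give no genotype, age or strain for the mice, no dose, and no description of the Lipo form. They do not say that the 2 libraries of a group came from separate mice, so each p-value below measures only the spread between libraries, which may be technical.

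Glutathione is a small thiol peptide that glutathione peroxidases use to reduce peroxides and that transferases attach to reactive compounds, and its oxidised form is recycled by glutathione reductase with NADPH. Thioredoxin passes electrons from NADPH by way of thioredoxin reductase to the peroxiredoxins. NRF2 is held at a low level by its partner KEAP1, and when released it binds antioxidant response elements together with small MAF proteins and raises transcription of many genes of both systems, which tumours use against oxidative stress and ferroptosis, the lipid peroxide-driven cell death that the series' title names.

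Values are nuclear-scaled FPKM, written nFPKM: the deposited FPKM of a gene's transcripts, summed and rescaled so that all transcripts outside the mitochondrial genome add up to 1000000 in each library. The rescaling matters because mitochondrial transcripts took 64.1% and 56.0% of summed FPKM in the Lipo-MK1775 libraries and 47.3% in Free-MK1775+NLG919 replicate 2, against 2.88% to 4.82% in the other 7. Low values moved in steps that gave a relative nuclear depth of 1 and 1.57 for the Lipo-MK1775 libraries and 2.15 for Free-MK1775+NLG919 replicate 2, against 3.47 to 5.33 for the others. No library of Lipo-MK1775 had a low mitochondrial share, so that treatment and the high share cannot be told apart. The summed level of 10 carcinoma epithelium markers was 1078 to 2599 nFPKM, with Krt14, Epcam or Esrp1 at 0 in 7 of the libraries. The sum of 10 endothelial markers was 89.4 and 77.9 nFPKM in Lipo-MK1775, against 290.4 and 216 in the negative control, with none at 0. By the test described below, 8 of these 10 were called down. That test called 21.0% of all genes in the same comparison, 3000 of 3251 of them down. The part of the endothelial sum in the results below was not tested. In whole tumours, fewer cells of a type and less RNA per cell cannot be told apart.

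Together the 39 genes held 0.731% and 0.707% of nuclear FPKM in Free-MK1775, 0.744% and 0.529% in Free-MK1775+NLG919, 0.486% and 0.533% in Lipo-MK1775, 0.736% and 0.713% in Lipo-MK1775+NLG, and 0.661% and 0.667% in the negative control. The 3 libraries of high mitochondrial share were thus the 3 lowest. Levels spanned a wide range in the negative control. Gpx1, the abundant cytosolic glutathione peroxidase, averaged 1048 ± 58.5 nFPKM (SD, n = 2), ahead of thioredoxin itself, Txn1, at 659 ± 40.2. The cytosolic superoxide dismutase Sod1 (519.9 ± 56.2) and the peroxiredoxins Prdx1 (466 ± 17.1) and Prdx5 (400.4 ± 11.8) followed, and the spreads of Sod1 and Prdx1 overlapped. At the low end stood the quinone reductase Nqo1 at 11.3 ± 0.510 nFPKM and the endoplasmic reticulum peroxidase Gpx7 at 2.27 ± 0.202.

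**Figure D1:**
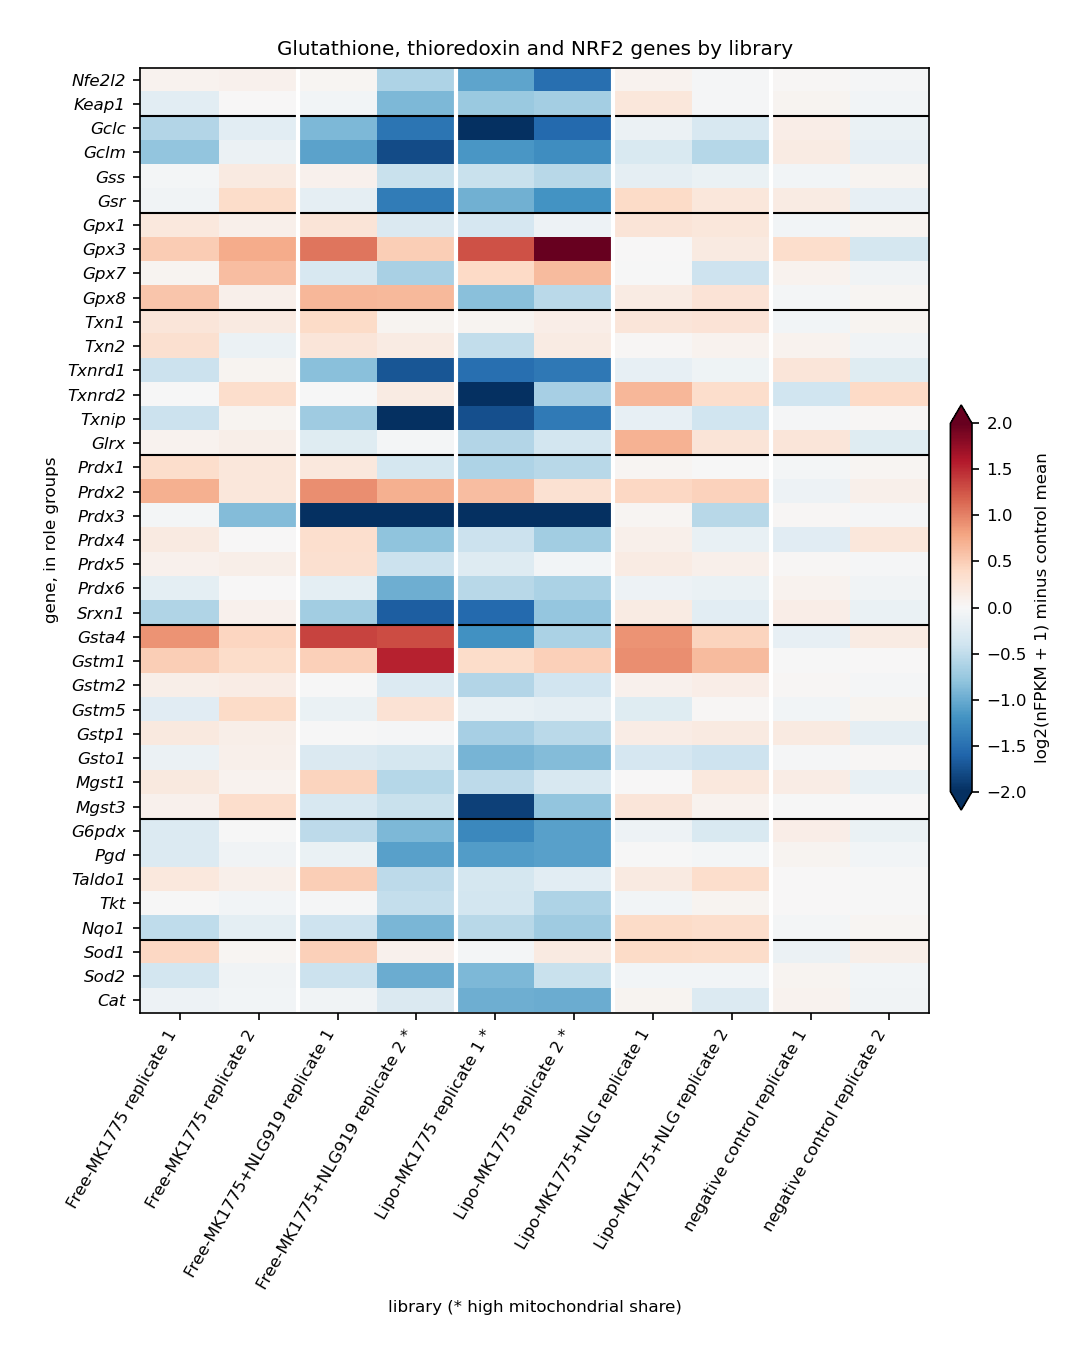
Heat map of the 39 genes (down the page, in role groups divided by black lines) in the 10 libraries (across, treated groups left of the negative control). Colour gives log2(nFPKM + 1) minus the mean of the 2 control libraries, cut at -2 and 2, and stars mark the 3 libraries of high mitochondrial share, where most genes are blue while Gpx3, Prdx2 and Gstm1 are red.

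Tests used limma on log2(nFPKM + 1) over all 15469 genes that passed the filter, with Benjamini-Hochberg adjustment over all of them, and a gene was called at an adjusted p under 0.05. On this scale the change of a gene with low values is understated. The fit pools the spread of all 5 groups, including the unlike pair of Free-MK1775+NLG919 libraries. With 2 libraries against 2, an exact permutation test of a single gene could not go below p = 0.333.

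Lipo-MK1775 against the negative control asks what the Lipo form of the WEE1 inhibitor changed on its own. The transcript of NRF2, both subunits of the enzyme that starts glutathione synthesis, the main thioredoxin reductase, both NADPH-producing enzymes of the pentose phosphate pathway and catalase were lower, and the secreted peroxidase Gpx3 was higher. Limma called 11 of the 39, 1 up and 10 down, or 28.2%, where 21.0% of all genes tested were called. The unadjusted p was under 0.05 for 23 of 39, against 6722 of all 15469 genes. The members' median log2 change was -0.60, against -0.78 for all genes. Below 0 lay 33 of 39, against 82.8% of all genes, and 24 of 39 lay above the median of all genes. Values of the libraries did not overlap for 36 of 39, against 75.6% of all genes. The count of calls rested on the libraries in the fit: it was 26 without either Free-MK1775+NLG919 library (49.6% and 49.4% of all genes), 5 without either Free-MK1775 library (6.4% and 6.66%), 4 without Lipo-MK1775 replicate 2 (1.55%), 1 without Lipo-MK1775 replicate 1 (0.0522%), and 0 without any single library of Lipo-MK1775+NLG or the negative control (0.00654% to 0.255%). The share of all genes called moved with the members' count. Median-of-ratios scaling put the median of all genes at -0.08 and gave 4 calls up and 1 down, where 5.11% of all genes were called. Quantile scaling gave 2 up and 1 down, where 4.2% were called.

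The regulators come first by role. Nfe2l2, which encodes NRF2 (GRCm39 chromosome 2, 75505857 to 75534985), had 73.1 and 53.1 nFPKM in Lipo-MK1775, against 156 and 150.1 in the negative control. It had 161 and 163 in Free-MK1775, 158 and 98.9 in Free-MK1775+NLG919 and 161 and 151 in Lipo-MK1775+NLG. The 7 libraries of low mitochondrial share lay within 1.08-fold of each other, and the 3 of high share were all lower, with Lipo-MK1775 lowest. The log2 change in Lipo-MK1775 was -1.28 (SE 0.27, adjusted p = 0.0280), and its distance from the all-gene median was -0.51. It was -0.41 under median-of-ratios scaling, not called. Keap1, the NRF2-binding repressor (chromosome 9, 21141026 to 21150657), had 41.7 and 43.7 in Lipo-MK1775, 60.8 and 70.5 in Free-MK1775, 67.8 and 37.3 in Free-MK1775+NLG919, 82.3 and 69.6 in Lipo-MK1775+NLG and 73.1 and 67.8 in the negative control. Its Lipo-MK1775 values lay below both control values, and the log2 change of -0.71 (SE 0.30, adjusted p = 0.103) was not called.

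The promoters of the members bear on this pathway, since NRF2 acts through a DNA element. The core of that element, TGACNNNGC on either strand, was looked for in the 250 bases before each gene start. The sequences came from the RefSeq promoter table (GRCm38.p6, 250 bases before to 50 after each gene start), which held 35 of the 39 members. The 50 bases after the start were not searched. The core occurred in 8 of the 35, or 22.9%, and in 11.5% of the 27025 genes of the table. The 8 were Nfe2l2, Gclm, Txnrd1, Prdx1, Gstm5, Mgst1, G6pdx and Sod1. A match says only that the letters are there, and does not show a bound site. Of these 8, Nfe2l2, Gclm, Txnrd1 and G6pdx were called down in Lipo-MK1775 against the negative control, and the other 4, Prdx1, Gstm5, Mgst1 and Sod1, were not called. In that comparison 28.2% of the 39 members and 21.0% of all genes were called, and a link between the core and the calls was not tested. The windows of 4 members are shown as examples, those of the called Gclm, Txnrd1 and G6pdx and of the uncalled Prdx1. The match is in capitals, the rest is flanking promoter, and each is read 5′ to 3′ on the gene's own strand. In all 4 the core lies on the opposite strand and so reads GCNNNGTCA. The Prdx1 match also holds the AP-1 motif TGANTCA on that strand, and the other 3 do not.
Gclm, chr3:122245398-122245456, plus strand: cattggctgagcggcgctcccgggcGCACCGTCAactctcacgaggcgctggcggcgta
Txnrd1, chr10:82859089-82859147, plus strand: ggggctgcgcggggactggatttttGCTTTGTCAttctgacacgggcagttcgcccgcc
Prdx1, chr4:116685441-116685499, plus strand: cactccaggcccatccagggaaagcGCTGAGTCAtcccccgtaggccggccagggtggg
G6pdx, chrX:74428904-74428962, minus strand: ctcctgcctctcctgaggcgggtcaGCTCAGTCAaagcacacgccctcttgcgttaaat
The cores of Gclm, Txnrd1, Prdx1 and G6pdx begin 134, 92, 133 and 57 bases before the gene start.

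Glutathione synthesis and recycling had 2 of its 4 members called down in Lipo-MK1775 and none up, and all 4 lay below 0. Of all genes, 21.0% were called in this comparison with the negative control and 82.8% lay below 0. Gclm, the modifier subunit of glutamate-cysteine ligase (GRCm39 chromosome 3, 122039206 to 122064381), had 16.4 and 15.5 nFPKM in Lipo-MK1775, against 42.7 and 33.96 in the negative control. It had 21.7 and 34.9 in Free-MK1775, 17.6 and 10.3 in Free-MK1775+NLG919 and 30.6 and 25.4 in Lipo-MK1775+NLG. Unlike Nfe2l2, Gclm also varied among the libraries of low mitochondrial share, by 2.42-fold, with Free-MK1775+NLG919 replicate 1 lowest and negative control replicate 1 highest. Its log2 change in Lipo-MK1775 was -1.21 (SE 0.35, adjusted p = 0.0441).

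Gclc, the catalytic subunit of the same ligase (chromosome 9, 77661817 to 77701767), had 0.118 and 10.9 nFPKM in Lipo-MK1775, 22.4 and 29.5 in Free-MK1775, 17.7 and 11.8 in Free-MK1775+NLG919, 31.3 and 27.1 in Lipo-MK1775+NLG and 37.5 and 30.98 in the negative control. Its log2 change of -3.27 (SE 0.87, adjusted p = 0.0379) rests on how transcripts were named: in Lipo-MK1775 replicate 1, 98.6% of the FPKM at the locus sat in a transcript that the assembly had left without a symbol. With such transcripts added, Gclc had 8.53 and 10.9 nFPKM in Lipo-MK1775, against 39.1 and 30.98 in the negative control, a log2 change of -1.75 (limma adjusted p = 0.0108). Both Lipo-MK1775 values were below all others by either count. Gsr, which recycles oxidised glutathione, had 29.98 and 25.4 in Lipo-MK1775, against 66.9 and 52.9 in the negative control, and -1.08 (adjusted p = 0.0715) was not called. Gss, glutathione synthetase, which completes the peptide, was at 17.2 and 15.97 in Lipo-MK1775, against 23.00 and 24.99 in the negative control, a log2 change of -0.51, not called.

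**Figure D2:**
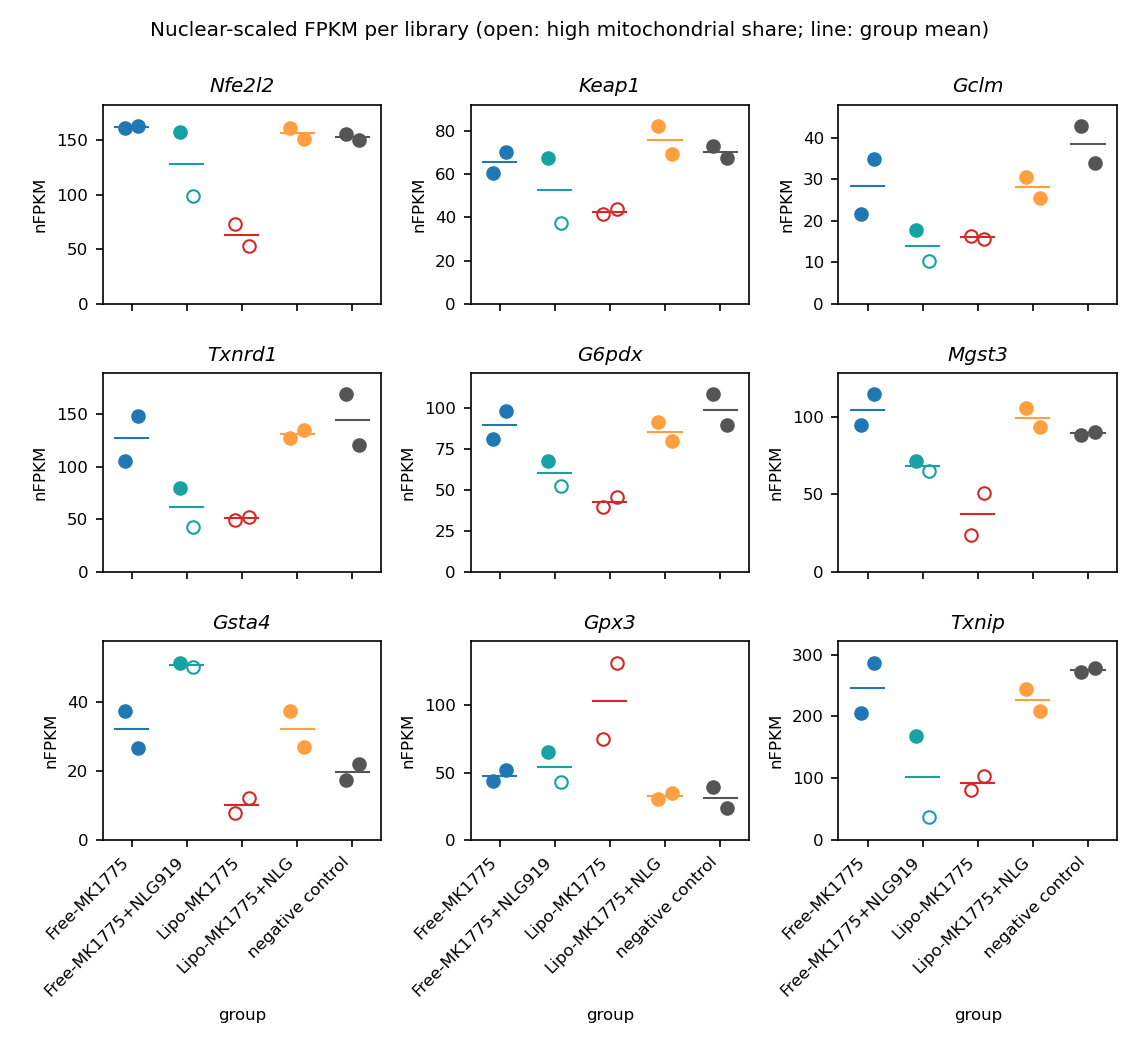
nFPKM of 9 members in each library, by group on the horizontal axis (treated groups left of the negative control), with axes starting at 0. Points are libraries, open where the mitochondrial share was high, and lines are group means; Nfe2l2 is level among filled points, while Gpx3 is highest and Gsta4 lowest in Lipo-MK1775.

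Of the 4 glutathione peroxidases 1 was called up and none down, where 21.0% of all genes were called. Above 0 lay 2 and below 0 lay 2. Gpx3, a secreted plasma peroxidase (chromosome 11, 54793279 to 54801203), had 74.8 and 132 nFPKM in Lipo-MK1775, against 39.1 and 23.7 in the negative control. It had 43.7 and 51.8 in Free-MK1775, 65.03 and 43.2 in Free-MK1775+NLG919 and 30.5 and 34.6 in Lipo-MK1775+NLG. Both Lipo-MK1775 libraries were above the other 8, and all 4 libraries of the free form were above both controls. The log2 change was 1.67 (SE 0.37, adjusted p = 0.0290) in Lipo-MK1775, which lay 2.45 above the all-gene median. The call held under median-of-ratios scaling, at 2.54 (adjusted p = 0.0181), and under quantile scaling, at 2.34 (adjusted p = 0.0198). Adipocytes and fibroblasts are among the cells that express Gpx3. The summed level of 9 adipocyte markers was 33.96 and 269 nFPKM in Lipo-MK1775, with 5 of the 9 (Adipoq, Plin1, Cfd, Retn and Plin4) at 0 in replicate 1, against 133 and 59.5 in the negative control. The sum of 12 fibroblast and matrix markers was 427 and 861 in Lipo-MK1775, against 706 and 603 in the negative control, with none at 0 in Lipo-MK1775. The part of either sum in the Gpx3 values was not tested.

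Gpx8, an endoplasmic reticulum peroxidase, had 54.00 and 66.6 nFPKM in Lipo-MK1775 and 154 and 152 in Free-MK1775+NLG919, the lowest and the highest group, against 94.3 and 99.6 in the negative control. Its change of -0.68 in Lipo-MK1775 was not called (adjusted p = 0.0617). Gpx1 had 828 and 974 in Lipo-MK1775, against 1007 and 1089 in the negative control, and Gpx7 3.31 and 4.04 in Lipo-MK1775, against 2.41 and 2.12 in the negative control, and neither was called. Gpx4, which reduces lipid peroxides in membranes and is a guard against ferroptosis, is outside the 39: it had 527 and 601 in Lipo-MK1775, against 703 and 799 in the negative control, a log2 change of -0.41 that was not called (adjusted p = 0.143).

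Of the 6 genes of the thioredoxin system, 1 was called in Lipo-MK1775, where 21.0% of all genes were called. Txnrd1, the cytosolic thioredoxin reductase (chromosome 10, 82669785 to 82733550), had 49.7 and 52.3 nFPKM in Lipo-MK1775, against 169 and 121 in the negative control. It had 106 and 149 in Free-MK1775, 79.7 and 43.2 in Free-MK1775+NLG919 and 127 and 135 in Lipo-MK1775+NLG. The 3 libraries of high mitochondrial share were the lowest, and Free-MK1775+NLG919 replicate 1 was the lowest of the rest, as for Gclm. The log2 change in Lipo-MK1775 was -1.47 (SE 0.33, adjusted p = 0.0298). Its substrate Txn1 was at 681 and 721 in Lipo-MK1775, against 631 and 688 in the negative control, a log2 change of 0.09 that was not called, although median-of-ratios scaling put it at 0.97 (adjusted p = 0.0488).

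Txnip, which binds and inhibits thioredoxin, had 80.5 and 103 nFPKM in Lipo-MK1775, 205 and 287 in Free-MK1775, 168 and 37.3 in Free-MK1775+NLG919, 245 and 208 in Lipo-MK1775+NLG and 272 and 279 in the negative control. The value of 37.3 in Free-MK1775+NLG919 replicate 2 was the lowest of all 10, below both Lipo-MK1775 libraries, and the change of -1.59 in Lipo-MK1775 was not called (adjusted p = 0.0689). Txnrd2, the mitochondrial thioredoxin reductase (chromosome 16, 18245134 to 18297823), had 2.15 and 13.3 in Lipo-MK1775, 21.5 and 27.9 in Free-MK1775, 21.4 and 24.3 in Free-MK1775+NLG919, 34.7 and 27.9 in Lipo-MK1775+NLG and 16.1 and 28.9 in the negative control, with a median of 57.1% of its locus in transcripts without a symbol. Its change of -1.75 was not called, and with those transcripts added it was -1.24 (adjusted p = 0.0809). The mitochondrial thioredoxin Txn2 and the glutaredoxin Glrx, which reduces glutathione-bound proteins, had changes of -0.17 and -0.47, neither called.

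Of the 6 peroxiredoxins and the sulfiredoxin, 1 of 7 genes was called in Lipo-MK1775, where 21.0% of all genes were called. Prdx3, the mitochondrial peroxiredoxin (chromosome 19, 60852489 to 60862994), had the largest change of any member by its named transcripts. Transcripts with the symbol Prdx3 had 8.55 and 0.433 nFPKM in Lipo-MK1775, 93.8 and 52.1 in Free-MK1775, 14.98 and 10.8 in Free-MK1775+NLG919, 98.5 and 64.8 in Lipo-MK1775+NLG and 97.5 and 94.4 in the negative control. On them limma called a log2 change of -4.71 (SE 0.74, adjusted p = 0.0230) in Lipo-MK1775. Up to 99.3% of the locus sat in assembled transcripts without a symbol. With these added, Prdx3 had 79.8 and 66.4 in Lipo-MK1775, 93.8 and 101 in Free-MK1775, 103 and 51.9 in Free-MK1775+NLG919, 98.5 and 111 in Lipo-MK1775+NLG and 97.5 and 94.4 in the negative control. The change was then -0.39 (limma adjusted p = 0.3004), not called. Likewise it was not called with them in Lipo-MK1775 against Free-MK1775 (adjusted p = 0.284) or in Lipo-MK1775+NLG against Lipo-MK1775 (adjusted p = 0.182), where its named transcripts were.

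**Figure D3:**
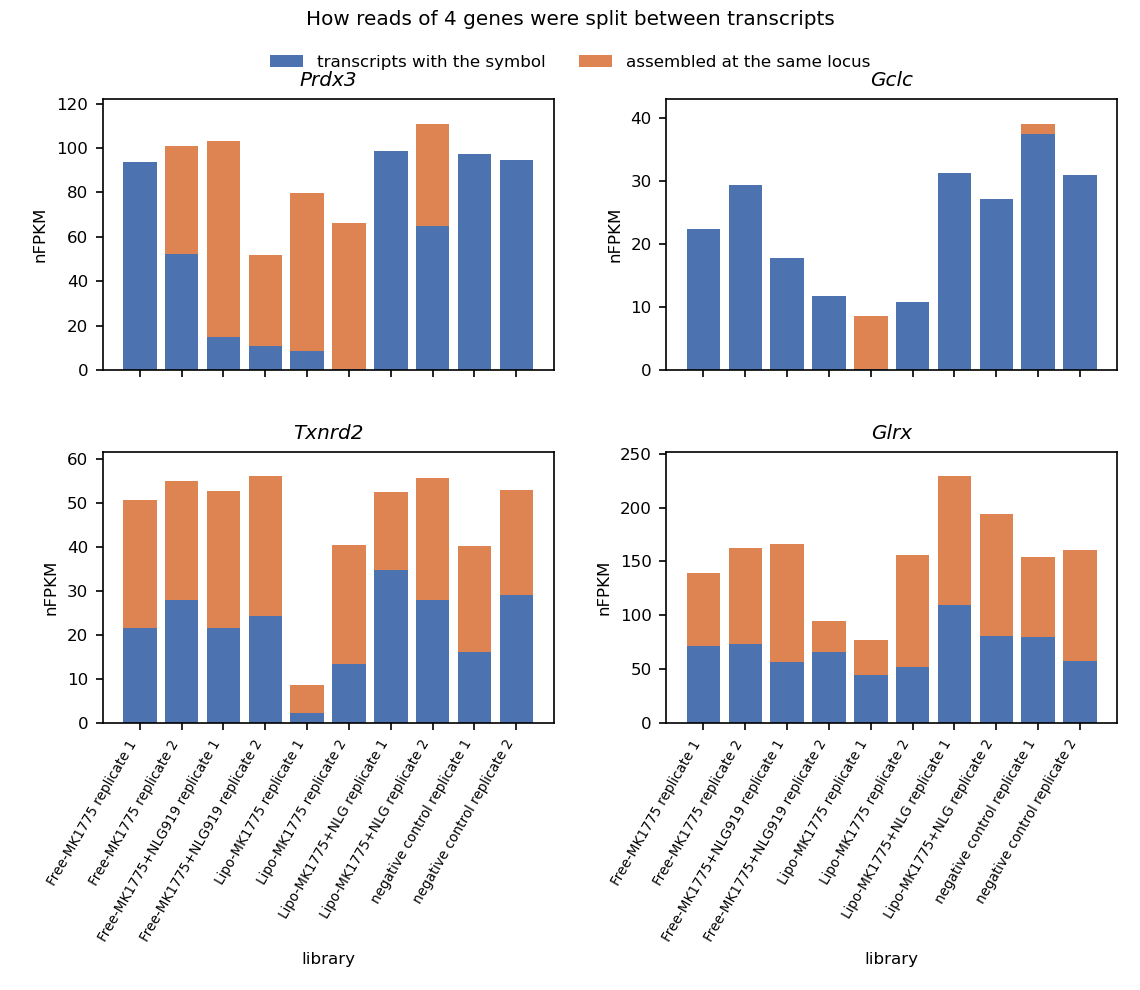
Stacked bars of nFPKM for Prdx3, Gclc, Txnrd2 and Glrx in the 10 libraries (treated left of the negative control), blue for transcripts that carry the gene symbol and orange for transcripts assembled at the same locus without a symbol. For Prdx3 the blue part almost vanishes in the Lipo-MK1775 libraries while the whole bar stays at 79.8 and 66.4 nFPKM; for Gclc the whole bar is lowest there.

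The other peroxiredoxins gave no call. Prdx1 had 304 and 317 nFPKM in Lipo-MK1775, against 453 and 478 in the negative control (-0.58), and Prdx6, which also has phospholipase activity, 175 and 166 in Lipo-MK1775, against 271 and 245 in the negative control (-0.59). Prdx4, of the endoplasmic reticulum, had a difference of -0.56 and Prdx5, found in several compartments, of -0.16. Prdx2, abundant in red cells, ran the other way: it had 335 and 269 in Lipo-MK1775, 358 and 256 in Free-MK1775, 419.5 and 357 in Free-MK1775+NLG919, 291 and 300.2 in Lipo-MK1775+NLG and 205 and 234 in the negative control. All 8 treated libraries were above both controls. The summed level of the 7 erythroid markers found was 227 and 143 in Lipo-MK1775, 726 and 579 in Free-MK1775, 339 and 896 in Free-MK1775+NLG919, 135 and 245 in Lipo-MK1775+NLG and 144 and 213 in the negative control. Slc4a1, the anion exchanger of red cells, was listed at 0 in replicate 2 of Lipo-MK1775, of Free-MK1775+NLG919 and of Lipo-MK1775+NLG, and above 0 in both controls. The part of the erythroid markers in the Prdx2 values was not tested. The change of 0.46 was called only under median-of-ratios scaling among the 3 scalings, at 1.34 (adjusted p = 0.0443). Srxn1, the sulfiredoxin that restores overoxidised peroxiredoxins, had 22.6 and 39.7 in Lipo-MK1775, against 75.2 and 62.4 in the negative control, and -1.16 (adjusted p = 0.0680) was not called.

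Of the 8 glutathione transferases, which conjugate glutathione to reactive compounds, 2 were called down, where 21.0% of all genes were called. Mgst3, a microsomal enzyme (chromosome 1, 167199535 to 167221410), had 23.8 and 51.1 nFPKM in Lipo-MK1775, against 88.4 and 90.2 in the negative control. It had 94.9 and 114 in Free-MK1775, 71.4 and 65.00 in Free-MK1775+NLG919 and 105 and 93.3 in Lipo-MK1775+NLG. The Lipo-MK1775 pair was the lowest, the Free-MK1775+NLG919 pair next, and the log2 change in Lipo-MK1775 was -1.33 (SE 0.33, adjusted p = 0.0343). Gsto1, the omega-class transferase (chromosome 19, 47843409 to 47853229), had 70.2 and 73.8 in Lipo-MK1775, 125 and 145 in Free-MK1775, 111 and 105 in Free-MK1775+NLG919, 107 and 101 in Lipo-MK1775+NLG and 132 and 138 in the negative control. Its change of -0.90 (SE 0.20, adjusted p = 0.0296) in Lipo-MK1775 was the smallest called, with pairs of libraries that lay close together.

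Gsta4, which conjugates the lipid peroxidation product 4-hydroxynonenal (chromosome 9, 78090056 to 78116631), had 7.86 and 12.3 nFPKM in Lipo-MK1775, 37.4 and 26.6 in Free-MK1775, 51.4 and 50.1 in Free-MK1775+NLG919, 37.4 and 27.1 in Lipo-MK1775+NLG and 17.3 and 22.1 in the negative control. Free-MK1775+NLG919, with 1 library of high mitochondrial share, held the highest pair, and Lipo-MK1775, with both of high share, the lowest pair. Against the negative control neither 1.33 in Free-MK1775+NLG919 (adjusted p = 0.137) nor -0.93 in Lipo-MK1775 (adjusted p = 0.0689) was called. Gstm1 was highest in Free-MK1775+NLG919 replicate 2, at 54.1 nFPKM, with 23.7 and 25.4 in Lipo-MK1775 and 17.9 and 18.2 in the negative control. The pi-class Gstp1 had 130.4 and 142 in Lipo-MK1775, against 233 and 182 in the negative control, and -0.60 was not called (adjusted p = 0.0607). Gstm2 (-0.48), Gstm5 (-0.16) and the microsomal Mgst1 (-0.42) were not called. Members of the Gstm and Gstp families have near-identical copies, and Txn1 and Prdx1 have processed copies, so their reads may have been split between copies.

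The NADPH genes had 2 of 5 called, both down, where 21.0% of all genes were called. G6pdx, glucose-6-phosphate dehydrogenase, which opens the pentose phosphate pathway (chromosome X, 73453089 to 73472800), had 39.6 and 45.9 nFPKM in Lipo-MK1775, against 108 and 89.4 in the negative control. It had 81.3 and 98.3 in Free-MK1775, 67.9 and 52.3 in Free-MK1775+NLG919 and 91.5 and 79.7 in Lipo-MK1775+NLG, and the log2 change in Lipo-MK1775 was -1.19 (SE 0.25, adjusted p = 0.0280). Pgd, the next NADPH-producing enzyme (chromosome 4, 149234448 to 149251228), had 94.3 and 96.9 in Lipo-MK1775, 171 and 196 in Free-MK1775, 189 and 96.3 in Free-MK1775+NLG919, 206 and 202 in Lipo-MK1775+NLG and 214 and 199.7 in the negative control. The 3 libraries of high mitochondrial share were the lowest, and the change of Pgd in Lipo-MK1775 was -1.10 (SE 0.30, adjusted p = 0.0383). With the mitochondrial share as a covariate its sign changed and 0 of the 39 members were called. That covariate takes the place of most of the contrast by construction. The non-oxidative enzymes Taldo1 (-0.28) and Tkt (-0.50) and the NRF2 target Nqo1 (-0.63) were not called.

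Catalase, Cat (chromosome 2, 103284194 to 103315505), which breaks down hydrogen peroxide, had 42.1 and 41.6 nFPKM in Lipo-MK1775, against 88.7 and 79.8 in the negative control. It had 78.7 and 81.1 in Free-MK1775, 80.4 and 68.8 in Free-MK1775+NLG919 and 87.3 and 69.2 in Lipo-MK1775+NLG. The Lipo-MK1775 values were nearly equal and lay below the other 8, and the log2 change was -0.99 (SE 0.22, adjusted p = 0.0301). Cat is also a red cell gene. The erythroid sums were 227 and 143 nFPKM in Lipo-MK1775, against 144 and 213 in the negative control, and their part in the Cat values was not tested. The dismutases that make hydrogen peroxide from superoxide were not called: cytosolic Sod1 had 0.07 and mitochondrial Sod2 -0.67.

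**Figure D4:**
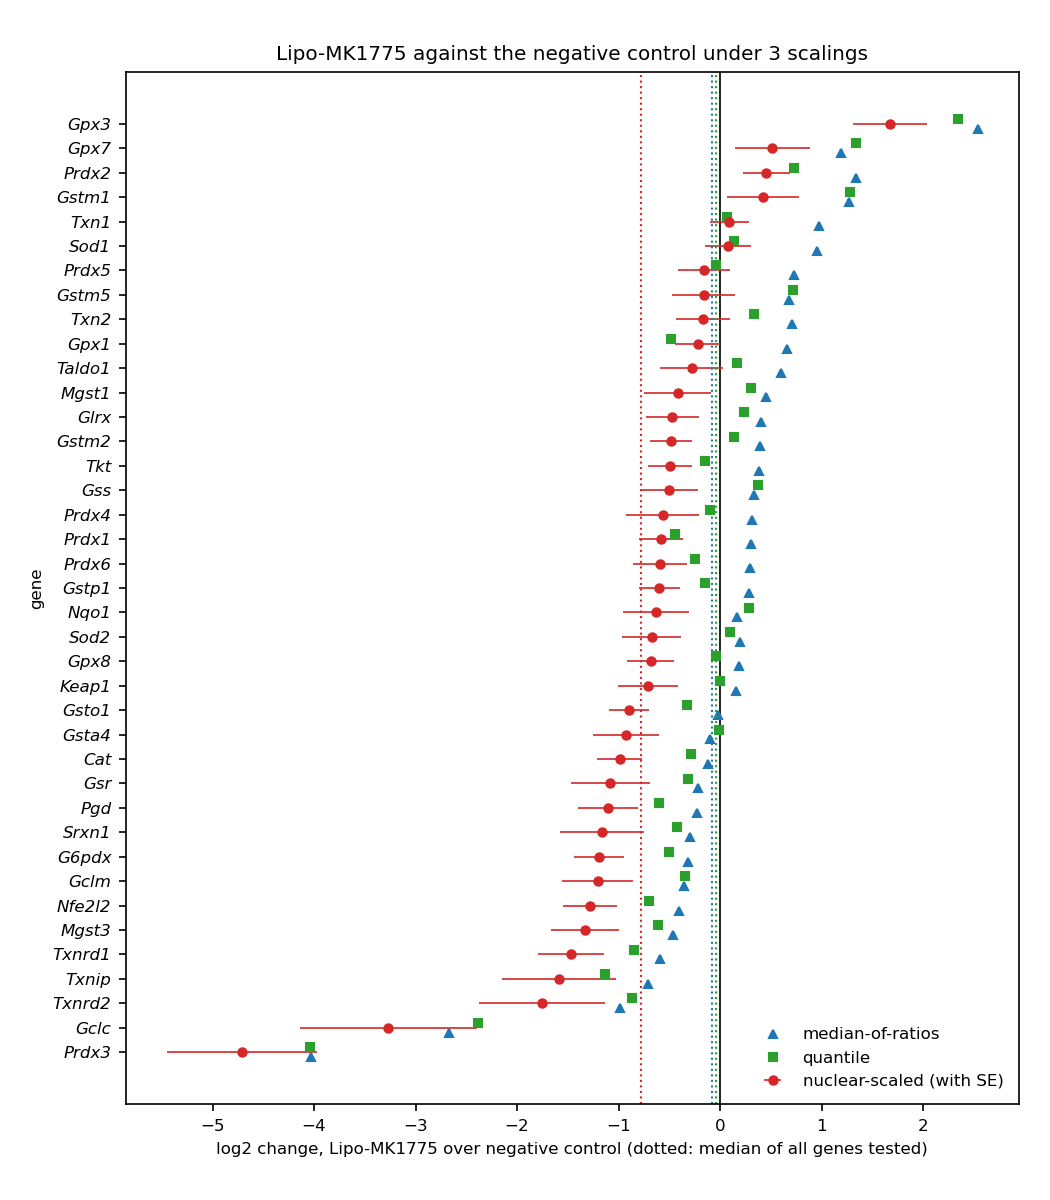
Log2 change of each of the 39 genes in Lipo-MK1775 over the negative control (horizontal axis), genes down the page by that change, under nuclear scaling (red circles, bars are SE), median-of-ratios scaling (blue triangles) and quantile scaling (green squares). Dotted lines are medians of all genes tested; Gpx3 is at the top under every scaling, Prdx3 and Gclc at the bottom, and 18 genes in the middle change sign.

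The direction of the middle of the set depended on the scaling. Of the 39, 15 lay below 0 under nuclear, median-of-ratios and quantile scaling alike, 6 lay above 0 under all 3, and 18 changed sign between them. Under median-of-ratios scaling, those past the threshold in Lipo-MK1775 were Gpx3, Prdx2, Txn1 and Prdx5 up and Prdx3 down. Under quantile scaling they were Gpx3 and Gpx7 up and Prdx3 down. Nfe2l2, Gclc, Gclm, Txnrd1, Mgst3, Gsto1, G6pdx, Pgd and Cat stayed below 0 under all 3 scalings, while only nuclear scaling called them. Under median-of-ratios scaling Gsto1 was at -0.02 and Cat at -0.12. Under nuclear scaling their distances from the all-gene median were -0.12 for Gsto1 and -0.21 for Cat.

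Lipo-MK1775 against Free-MK1775 asks what the form of the inhibitor changed. Limma called 5 of 39, all down, or 12.8%, where 3.39% of all genes were called. The unadjusted p was under 0.05 for 18 of 39, against 5938 of all 15469 genes. The median change was -0.62, against -0.71 for all genes. Nfe2l2 had 73.1 and 53.1 nFPKM in Lipo-MK1775, against 161 and 163 in Free-MK1775, a log2 change of -1.36 (SE 0.27, adjusted p = 0.0447). Mgst3 changed by -1.55 (SE 0.33, adjusted p = 0.0481), Gsta4 by -1.59 (SE 0.33, adjusted p = 0.0468) and Gsto1 by -0.89 (SE 0.20, adjusted p = 0.0491). Values of the libraries did not overlap for 33 of 39, against 73.4% of all genes. The fifth call, Prdx3 at -4.26, rests on the transcript split. The count was 26 without either Free-MK1775+NLG919 library (45.2% and 45.1% of all genes), 4 without Lipo-MK1775 replicate 2 (1.1%), 1 without Lipo-MK1775 replicate 1 (0.0326%), and 0 without any of the other 6 (0.013% to 0.302%).

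Lipo-MK1775+NLG against Lipo-MK1775 asks what the second agent changed in the Lipo form, between a pair of libraries of low and a pair of high mitochondrial share. Limma called 5 of 39, 4 up and 1 down, where 5.34% of all genes were called. The unadjusted p was under 0.05 for 23 of 39, against 6401 of all 15469 genes. The median change was 0.61, against 0.75 for all genes. Nfe2l2 rose by 1.31 (SE 0.27, adjusted p = 0.0428), Mgst3 by 1.48 (SE 0.33, adjusted p = 0.0467) and Gsta4 by 1.60 (SE 0.33, adjusted p = 0.0427). Gpx3 had 30.5 and 34.6 nFPKM in Lipo-MK1775+NLG, against 74.8 and 132 in Lipo-MK1775, a log2 change of -1.58 (SE 0.37, adjusted p = 0.0483). Prdx3, at 4.45, rests on the transcript split. The count was 30 without either Free-MK1775+NLG919 library (48.1% and 48% of all genes), 4 and 1 without Lipo-MK1775 replicate 2 and 1 (1.06% and 0.13%), and 0 without any of the other 6 (0.0131% to 0.216%).

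Lipo-MK1775+NLG against the negative control, both with low mitochondrial shares, gave 0 calls by limma among the 39, where 0.00646% of all genes were called. An unadjusted p under 0.05 was reached by 0 of 39, against 390 of all 15469 genes. The median was 0.05, against -0.02 for all genes. Values did not overlap for 19 of 39, against 44.0% of all genes. The largest differences were 0.78 for Gstm1, 0.67 for Gsta4 and 0.51 for Txnrd2 upward and -0.44 for Gclm and -0.37 for Gsto1 downward. Nfe2l2 differed by 0.03 and Txnrd1 by -0.13.

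Free-MK1775 against the negative control asks what the free inhibitor changed on its own. Limma again called 0 of 39, where 0.0129% of all genes were called. An unadjusted p under 0.05 was reached by 0 of 39, against 303 of all 15469 genes. The median was 0.10, against -0.06 for all genes, and values did not overlap for 18 of 39, against 33.3% of all genes. The largest differences were 0.66 for Gsta4, 0.62 for Gpx3 and 0.47 for Prdx2 upward, and -0.45 for Gclm and, in its named transcripts, -0.45 for Prdx3 downward. The libraries of Free-MK1775 differed from each other: Gclm had 21.7 and 34.9 nFPKM, Srxn1 44.9 and 72.4 and Txnrd1 106 and 149, with replicate 1 the lower each time.

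Free-MK1775+NLG919 against the negative control gave 0 calls of 39, where 0.0194% of all genes were called. An unadjusted p under 0.05 was reached by 11 of 39, against 3353 of all 15469 genes. The median was -0.18, against -0.44 for all genes, and values did not overlap for 23 of 39, against 50.6% of all genes. The libraries of Free-MK1775+NLG919 were unlike: Txnip had 168 and 37.3 nFPKM, Gsr 52.6 and 21.9 and Nfe2l2 158 and 98.9, the library of high mitochondrial share the lower each time. With that library alone standing for the group and assumed to vary like the others, 20 of 39 and 41.9% of all genes were called, among them Txnip at -2.85, Gclm at -1.80 and Txnrd1 at -1.71 below the negative control and Gstm1 at 1.53 above it. With the other library alone, 0 of 39 and 0.0261% of all genes were called. That other library, replicate 1, still held the lowest Gclm (17.6), Gclc (17.7), Txnrd1 (79.7), Srxn1 (41.9) and G6pdx (67.9) of the 7 libraries of low share, and the highest Gsta4 (51.4), Gpx8 (154) and Prdx2 (419.5).

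Free-MK1775+NLG919 against Free-MK1775 gave 0 calls of 39, where 0.0% of all genes were called. An unadjusted p under 0.05 was reached by 6 of 39, against 1657 of all 15469 genes. The median was -0.27, against -0.39 for all genes. Without Free-MK1775+NLG919 replicate 1, limma called 17 of 39 and 37% of all genes. Lipo-MK1775+NLG against Free-MK1775+NLG919 gave 0 of 39, where 0.0129% of all genes were called. An unadjusted p under 0.05 was reached by 8 of 39, against 1936 of all 15469 genes. The median was 0.25, against 0.42 for all genes. Here limma called 20 of 39 and 39.3% of all genes without Free-MK1775+NLG919 replicate 1. The largest differences were -1.60 for Txnip in Free-MK1775+NLG919 against Free-MK1775 and 1.49 for Txnip in Lipo-MK1775+NLG against Free-MK1775+NLG919, apart from Prdx3.

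Whether the second agent acted differently in the Lipo and the free form was tested as the change from adding it in the Lipo form minus the change in the free form, a contrast added after the data had been seen. Limma called 12 of 39, 11 up and 1 down, where 21.0% of all genes were called. The median was 0.94, against 1.119 for all genes. For Txnrd1 the change was 1.34 in the Lipo form and -1.08 in the free form, a difference of 2.43 (SE 0.46, adjusted p = 0.0386). For Gsr it was 1.38 in the Lipo form and -0.94 in the free form, a difference of 2.32 (SE 0.55, adjusted p = 0.0407), and for Nfe2l2 1.31 in the Lipo form and -0.37 in the free form, a difference of 1.68 (SE 0.38, adjusted p = 0.0402). Gpx3 went the other way, with -1.58 in the Lipo form and 0.15 in the free form and a difference of -1.74 (SE 0.52, adjusted p = 0.0475). Free-MK1775+NLG919 and Lipo-MK1775, which hold all 3 libraries of high mitochondrial share, enter this contrast with the same sign, so the mitochondrial share and the interaction cannot be told apart. With the mitochondrial share as a covariate 0 were called. The count was 29 and 16 without Free-MK1775+NLG919 replicate 1 and 2 (57.5% and 24.1% of all genes), 4 and 1 without Lipo-MK1775 replicate 2 and 1 (1.3% and 0.013%), and 0 without any of the other 6 (0% to 0.112%).

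The 3 libraries of high mitochondrial share can be set beside each other as a description, since they came from 2 treatments. For 25 of 39 members all 3 lay below all 7 other libraries, against 46.3% of all genes. For 0 members did all 3 lie above, against 2.99% of all genes. Nfe2l2, Keap1, Gclm, Txnrd1, Srxn1, G6pdx, Pgd, Prdx1 and Nqo1 were among the 25. The rest of the 25 were Gclc, Gss, Gsr, Gpx1, Txnip, Prdx3, Prdx4, Prdx5, Prdx6, Gstm2, Mgst1, Mgst3, Taldo1, Tkt, Sod2 and Cat. Within the 3, some members had unlike values in the Free-MK1775+NLG919 and the Lipo-MK1775 libraries. Gsta4 had 50.1 nFPKM in the Free-MK1775+NLG919 library, against 7.86 and 12.3 in Lipo-MK1775. Gpx8 had 152 there, against 54.00 and 66.6 in Lipo-MK1775, and Gpx3 had 43.2 there, against 74.8 and 132 in Lipo-MK1775. With a single library on the Free-MK1775+NLG919 side, no test was made. Among the 7 libraries of low share the median spread of a member was 1.51-fold, with 19 of 39 under 1.5-fold and 9 over 2-fold. Tkt (249.7 to 269.8 nFPKM) and Nfe2l2 (150.1 to 162.5) varied least, at 1.08-fold each, while Prdx3 in its named transcripts (14.98 to 98.5), which rests on the transcript split, varied most, at 6.58-fold. Gsta4 (17.3 to 51.4) varied 2.96-fold, Gpx7 (1.46 to 4.005) and Gpx3 (23.7 to 65.0) 2.74-fold each, and Gclm (17.6 to 42.7) 2.42-fold.

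Other genes of the pathway, in lists beside the 39, were counted in the same comparison of Lipo-MK1775 with the negative control. Over the 6 lists 14 of 85 genes tested were called, or 16.5%, where 21.0% of all genes were called. Of 10 further NRF2 regulators tested, 3 were called down and none up: the small MAF genes Mafk (log2 change -1.52, SE 0.30, adjusted p = 0.0277) and Maff (30.8 and 56.9 nFPKM in Lipo-MK1775, against 96.97 and 114 in the negative control), and the kinase Gsk3b, which marks NRF2 for breakdown (log2 change -1.64, SE 0.39, adjusted p = 0.0325). Of 18 further NRF2 targets 3 were called down and none up, with the heme oxygenase Hmox1 at 183 and 265 in Lipo-MK1775, against 487 and 413 in the negative control (log2 change -1.02, SE 0.29, adjusted p = 0.0409), and the NADPH-producing malic enzyme Me1 at -1.05 (SE 0.25, adjusted p = 0.0325). Among the 3 libraries of high mitochondrial share, Hmox1 was at 519.9 nFPKM in Free-MK1775+NLG919 replicate 2, the highest of the 10 libraries, while the pair of Lipo-MK1775 held the lowest values of the 10. Of 17 further glutathione genes 3 were called down and none up, among them the glutathione-degrading Chac1 at -1.26 (SE 0.29, adjusted p = 0.0315) and the exporter Abcc1, whose -4.67 rests partly on unnamed transcripts (7.55 and 7.31 with them in Lipo-MK1775, against 32.6 and 30.2 in the negative control). Of 13 further transferases 1, Gstcd (log2 change -1.28, SE 0.39, adjusted p = 0.0475), was called down and none up, and Gstt3 had -1.15, not called. Of 15 further thioredoxin genes 2 were called down and none up, the oxidoreductase Ero1a (log2 change -2.38, SE 0.49, adjusted p = 0.0278) and Txndc12 (log2 change -1.57, SE 0.35, adjusted p = 0.0295). Of 12 further NADPH genes 1 was called up, the pentose phosphate lactonase Pgls (log2 change 0.87, SE 0.23, adjusted p = 0.0379), and 1 down, the folate enzyme Mthfd1 (log2 change -1.64, SE 0.34, adjusted p = 0.0277). Slc7a11, the cystine importer for glutathione synthesis, had 1.62 and 3.52 nFPKM in Lipo-MK1775, against 9.01 and 7.77 in the negative control, once unnamed transcripts were added, since those with its symbol held under 2 nFPKM in every library.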

How the data were processed

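Reads were trimmed, aligned to GRCm39 and assembled with Trim Galore, HISAT2 and StringTie, with FastQC for quality, per the submitters' processing notes; versions, annotation and strand setting: not given in the sources used here. The authors deposited FPKM per transcript (161762 transcripts, 21051 without a symbol) and no read counts, so intervals from counts were not possible. Transcripts were summed per symbol, rescaled to the FPKM outside the 46 mitochondrial transcripts, filtered at 1 nFPKM or more in 2 libraries and tested with limma 3.58.1 (R 4.3.3; pseudocount 1, variance trend, 10 libraries, a mean per group). The script was tested on simulated data. Genes whose values are given by library are Nfe2l2, Keap1, members called (up to 3 a role) and the most variable of each role; those printed beyond this were chosen after their values were seen. Members and lists were chosen with earlier results of these data known. As strand is not given, 13 members overlapped by a gene on the opposite strand cannot be told apart from it there.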

Additional observations from a re-analysis of the deposited data

Results flagged for a closer look

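In 12 members the change from adding the second agent differed between the Lipo and the free form by limma's test of the difference itself, or 30.8%, where 21.0% of all genes were called. The median difference was 0.94 over the 39 members, against 1.119 over all genes. The log2 difference, Lipo form minus free form, was 6.82 for Prdx3, 2.90 for Txnip, 2.43 for Txnrd1, 2.32 for Gsr, 2.09 for Mgst3, 2.05 for Srxn1, 1.75 for Gclm, 1.68 for Nfe2l2, 1.56 for G6pdx, 1.52 for Pgd, 0.94 for Gstp1 and -1.74 for Gpx3. Adjusted p-values ran from 0.0323 to 0.0489. The 3 libraries of high mitochondrial share, both of Lipo-MK1775 and 1 of Free-MK1775+NLG919, take part in this contrast, and the Prdx3 value rests on how transcripts were named.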

How the results depend on the processing

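Counts of members called by limma moved with the processing in 4 contrasts, given in the order Lipo-MK1775 against the negative control, Lipo-MK1775 against Free-MK1775, Lipo-MK1775+NLG against Lipo-MK1775, and the Lipo form minus the free form (11, 5, 5 and 12 of 39 as reported, where 21.0%, 3.39%, 5.34% and 21.0% of all genes were called; the brackets give the same share in each setting). They were 24, 25, 27 and 23 with deposited FPKM (48.2%, 48.3%, 54.8% and 47%), 5, 1, 1 and 1 with median-of-ratios scaling (5.11%, 0.912%, 1.17% and 0.297%), and 3, 0, 1 and 0 with quantile normalisation (4.2%, 1.01%, 1.01% and 0.155%). They were 10, 5, 5 and 11 with a pseudocount of 0.1 (19.9%, 3.48%, 5.14% and 18.8%) and 11, 1, 1 and 14 with 10 (21.9%, 1.19%, 1.31% and 20.7%). They were 5, 0, 0 and 0 with no filter (2.95%, 0.226%, 0.183% and 0.0934%) and, of 38, 11, 11, 15 and 17 with a minimum of 5 (28.6%, 9.75%, 14.9% and 33.8%). They were 8, 1, 1 and 4 with the highest transcript of a gene (11%, 0.643%, 0.499% and 4.29%), 16, 14, 14 and 18 with assembled transcripts added (41.6%, 29.5%, 35.8% and 44.6%), 10, 1, 2 and 6 with no variance trend (19.1%, 1.03%, 3.14% and 15.8%), and 0 in all 4 with the mitochondrial share as a covariate (0% to 0.129%). Directions also moved under median-of-ratios scaling. There the 1 call in the second contrast was up and was not among the 5 reported. The 1 call in the third contrast and the 1 in the fourth were down. In the fourth the members' median was -0.37, against 0.08 for all genes, with 26 of 39 below 0. The fourth contrast and its alternatives were chosen after seeing the data. With only the groups compared the counts were 19, 15 and 24 for the 3 comparisons of groups (41.2%, 24.5% and 39.2%). None of the 4 could be fitted without the libraries of high mitochondrial share, as that removes Lipo-MK1775. The covariate takes the place of most of the contrast by construction; the cause of the other moves was not tested. Leaving out each library in turn gave 0 to 26, 0 to 26, 0 to 30 and 0 to 29 (up to 49.6%, 45.2%, 48.1% and 57.5%). The other 5 comparisons gave 0 in every setting that kept all libraries or left out the 3 of high share. Leaving out single libraries gave 0 to 20 for Free-MK1775+NLG919 against the negative control (up to 41.9%), 0 to 17 for Free-MK1775+NLG919 against Free-MK1775 (up to 37%) and 0 to 20 (up to 39.3%) in Lipo-MK1775+NLG against Free-MK1775+NLG919, above 0 only without Free-MK1775+NLG919 replicate 1, and 0 to 0 for the other pair.

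Replicate numbers are shared between groups, but deviations from group means correlated at -0.20 to 0.07 over 10 pairs of groups, none over 0.1, so the numbers were not taken to pair libraries. A replicate block gave 9, 1, 1 and 1 members called in the 4 contrasts (13.7%, 0.388%, 0.265% and 0.465% of all genes) and 0 in the other 5.

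Some values of single genes changed sign where called under either setting. Against the negative control in Lipo-MK1775, Prdx5 was 0.73 under median-of-ratios scaling, Slc7a11 -1.45 with assembled transcripts and Pgd 0.075 with the covariate. For the Lipo form minus the free form, Gstp1 was -0.39 under median-of-ratios scaling, Slc7a11 1.55 with assembled transcripts, and Pgd -0.12 and Txnip -0.86 with the covariate. Depth limits the Lipo-MK1775 libraries most, at the lowest relative nuclear depths.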
